A study of Mus musculus with 5 samples.

Results

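MicroRNA precursor genes were the 60 rows, of 12930 in the deposited table, whose name starts with MIR followed by a digit or with MIRLET7, without host genes named HG. A value was present in all 4 siRNA libraries for 46 of them, and 14 lacked a value in at least 1 library. RNA was measured in mouse embryonic stem cells of the OG2 line, whose strain is given as (CBA/CaJxC57BL/6J) and 129Sv/Jae, from females. There were 2 libraries of cells transfected with siRNA against Dhx30, 2 with siRNA against Tfam and 1 labelled negative control (NC). Dhx30 encodes an RNA helicase found in mitochondrial RNA granules, and Tfam the factor that packages and transcribes mitochondrial DNA. All cells spent 24 h in a LIF medium with the kinase inhibitors PD0325901 and CHIR99021. They were then transfected at 50 nM siRNA and held for 36 h in differentiation medium containing bFGF and Activin A, and the protocol given for NC is the same. The labels do not say whether replicates were separate cultures, so the p-values below reflect the spread of these libraries alone and it may be technical.

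A microRNA is cut from a hairpin within a longer primary transcript. The nuclear Drosha and Dgcr8 complex frees the hairpin, Dicer1 trims it in the cytoplasm, and 1 arm is loaded into an Argonaute protein, where its seed, bases 2 to 8, pairs with target messages. In mouse embryonic stem cells the mir-290 cluster is a leading source of microRNAs and is known for favouring entry into S phase. The libraries were made from fragmented total RNA, a method aimed at long RNA. The values are therefore read here as reads assigned to the annotated hairpin span, from primary or host transcripts, and not as levels of mature microRNAs.

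Each value is a log2 ratio of 1 siRNA library to the NC library, as turned here. The headings state neither denominator nor direction. All 1574 deposited values of genes with a value missing elsewhere were below 0, and a minimum on reads in either library gives that pattern only if the deposited ratio is NC over siRNA. The signs were therefore reversed, and every direction below, the siDhx30 to siTfam differences included, rests on that reading. The depth behind a ratio is unknown, because the table holds no reads. Where a pair of values is given for an siRNA, replicate 1 comes first. The NC library is the denominator of all 4 ratios, so any error in its value for a gene moves them together.

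Dhx30 had log2 ratios of -0.40 and -0.20 in siDhx30 and 0.014 and 0.036 in siTfam, and was below NC in both siDhx30 libraries. Tfam had 0.12 and -0.014 in siDhx30 and -0.28 and -0.017 in siTfam, so that in siTfam replicate 2 it was at the NC level. limma gave adjusted p-values of 0.998 for Dhx30 in siDhx30 and 0.987 for Tfam in siTfam. Among markers of embryonic stem cells, 4 of 13 listed genes (Dppa4, Esrrb, Sall4 and Tfcp2l1) were measured, and Pou5f1, Sox2 and Nanog were not analysed here. The table held 6 of 10 primitive endoderm, 1 of 7 trophoblast, 4 of 8 fibroblast and 2 of 4 neural markers. Ratios give no levels, so the cell type could not be checked by marker abundance. The neural pair Nes and Pax6 had median ratios of -0.43, -0.73, -0.36 and -1.05 in the 4 libraries, and the 5 complete primitive endoderm markers -0.19, -0.021, -0.44 and -0.96. The 4 stem cell markers had medians of 0.16, 0.025, 0.15 and 0.13, above NC throughout. The 4 fibroblast markers had 0.33, -0.25, 0.16 and 0.064, and the trophoblast marker Tfap2c had -0.18, 0.084, 0.083 and 0.46. The part of these in the precursor values was not tested.

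Among the precursors were 6 members of the mir-290 cluster and 2 of the Mir363 cluster, which are shown first because they are known embryonic stem cell microRNAs and because several share a seed. Mature sequences below are from RefSeq (GRCm38.p6), 5′ to 3′, with the seed in capitals. A mature sequence was found for 56 of the 60 members, 78 sequences with 72 different seeds.
miR-291a-3p: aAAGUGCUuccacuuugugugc
miR-294-3p: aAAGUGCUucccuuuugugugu
miR-295-3p: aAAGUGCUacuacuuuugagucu
miR-291b-3p: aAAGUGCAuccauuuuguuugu
miR-290a-3p: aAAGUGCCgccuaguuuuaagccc
miR-293-3p: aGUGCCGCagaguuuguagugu
miR-290a-5p: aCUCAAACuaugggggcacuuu
miR-293-5p: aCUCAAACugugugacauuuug
miR-291a-5p: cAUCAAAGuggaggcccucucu
miR-291b-5p: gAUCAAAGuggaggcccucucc
miR-363-3p: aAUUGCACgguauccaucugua
miR-92a-3p: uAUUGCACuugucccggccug
The seed AAGUGCU was shared by miR-291a-3p, miR-294-3p and miR-295-3p. The seed of miR-291b-3p, AAGUGCA, and that of miR-290a-3p, AAGUGCC, begin with the same letters. CUCAAAC was shared by miR-290a-5p and miR-293-5p, AUCAAAG by miR-291a-5p and miR-291b-5p, and AUUGCAC by miR-363-3p and miR-92a-3p from the precursor Mir92-2. Outside these clusters, 1 seed, UUGCUUC, was shared, by miR-686 and miR-7231-3p.

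The remaining sequences shown are those of precursors at the ends of the range of ratios, and miR-686. The precursor Mir686 lay close to NC, and miR-686 is shown because it shares the seed of miR-7231-3p.
miR-678: gUCUCGGUgcaaggacuggagg
miR-1191a: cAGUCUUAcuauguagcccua
miR-5116: uUUGAUAGgaaccccgccuga
miR-5113: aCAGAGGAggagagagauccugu
miR-1905: cACCAGUCccaccacgcgguag
miR-7670-5p: aUUCAGAUgggcagauugggaa
miR-7658-5p: uGUGGGCGuggcggugcugg
miR-8107: uGGAAACUaguggcugggaca
miR-5046: aGCUCCCGccacugugacccccuu
miR-7231-3p: cUUGCUUCuuuguuuccccagaa
miR-686: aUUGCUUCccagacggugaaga
None of the precursors of these 11 sequences shared a seed with the mir-290 or Mir363 members. For 4 members, Mir196a-1, Mir692-3, Mir8099-1 and Mir92-2, an identical mature sequence is encoded at another locus, and reads from the copies may have been split or shared.

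Most precursors lay inside an exon of a protein-coding gene. By GENCODE M21 annotation on GRCm38, 41 of 60 (68.3%) had at least 50% of their bases within an exon of another gene, against 456 of all 2202 annotated mouse microRNA genes (20.7%). Of the 41, 27 were on the strand of that gene and 14 on the opposite strand. The same-strand exonic members comprised 15 in a 3′ UTR, 3 in a 5′ UTR, 8 in coding sequence and 1 in an exon of a retained or non-coding transcript. Another 12 lay in an intron on the same strand (20.0% of members, against 38.6% of annotated microRNA genes), 3 in an intron on the opposite strand, and 4 overlapped no other gene (6.67% against 30.0%). For 12 of these 15 intronic members some bases, but under 50%, lay in an annotated exon. The precursors were 56 to 131 bases long (median 82.0). The strand use of the counting is not given in the sources used here, and reads of a precursor cannot be told apart from those of an overlapping gene on either strand.

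In single libraries the complete precursors had medians near those of all genes, and for the mean ratio in siTfam a lower one. The median over the 46 complete members was -0.031 and 0.069 in siDhx30, and -0.099 and -0.095 in siTfam. Over all 12088 complete genes it lay between -0.015 and -0.0057. For the mean ratio of each siRNA the median was -0.071 in siDhx30 and -0.17 in siTfam, against -0.012 and -0.020 over all genes. The 14 members with a missing value, whose 26 values present all lay above NC, are not in these medians. With genes of missing values kept, the member medians of the mean ratio lay slightly above NC for both siRNAs, as given further below. The lower median in siTfam may therefore depend on that filter. The number of members above NC was 21, 28, 19 and 18 of 46 in the same order (45.7%, 60.9%, 41.3% and 39.1%). Of all genes, 48.2%, 49.1%, 48.9% and 48.7% were above NC. Their values were spread more widely than those of all genes: 11, 5, 11 and 13 of the 46 lay more than 1 from NC on the log2 scale (23.9%, 10.9%, 23.9% and 28.3%), against 7.02%, 7.26%, 6.68% and 9.43% of all genes. Of the 23 other short non-coding genes with complete values (snoRNA, snRNA and scaRNA), 13.0% lay as far in each library, above the share of precursors in siDhx30 replicate 2. Their median absolute mean was 0.31 in siDhx30 and 0.26 in siTfam, and that of the precursors 0.25 and 0.35.

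**Figure D1:**
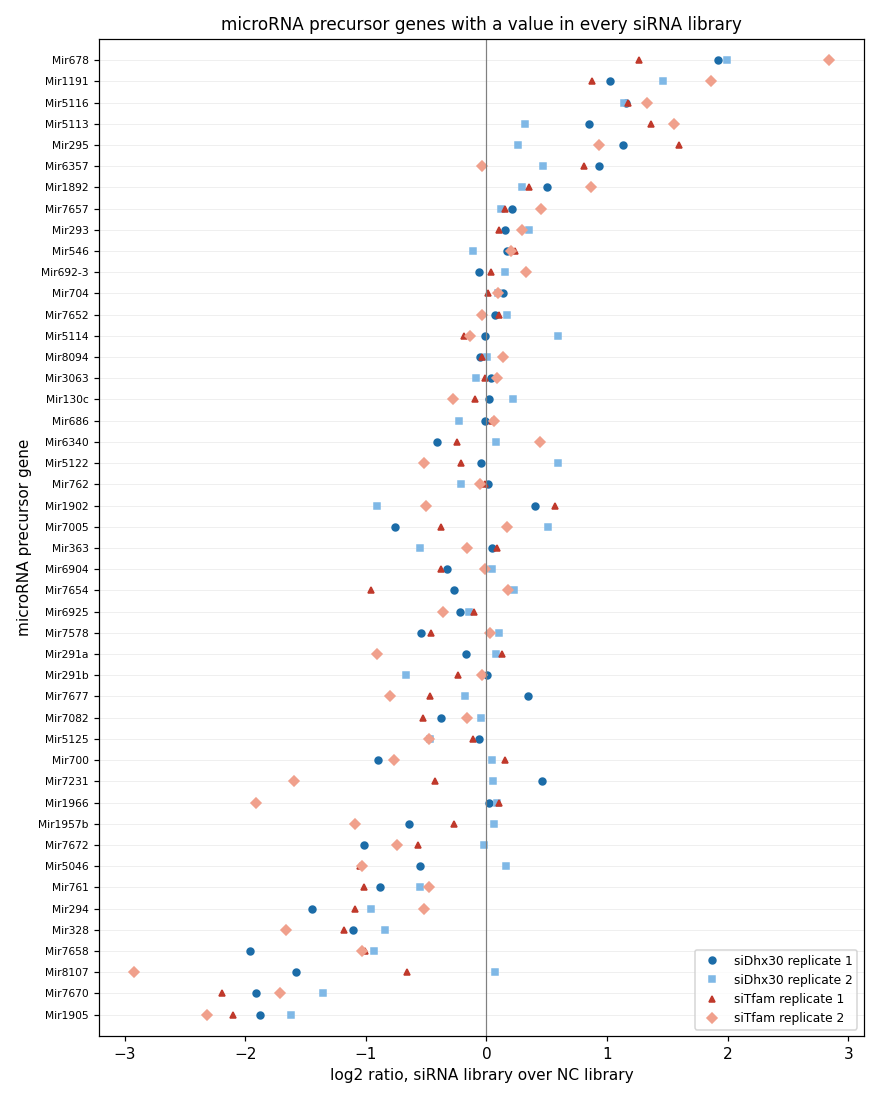
Log2 ratio over the NC library (horizontal axis) of each of the 46 complete microRNA precursor genes (rows, ordered by their mean), with 1 point per siRNA library. Points of Mir678, Mir1191 and Mir5116 lie to the right of 0 in every library and those of Mir1905, Mir7670 and Mir7658 to the left, while most others straddle or crowd 0.

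The members with a missing value had values on the higher side only. This is the pattern that set the sign of all values, so their side of NC is fixed by that reading and is no result. Of these 14, 7 had a value in 1 library, 2 in 2 libraries and 5 in 3 libraries, and all 26 values present were above NC. Missing values affected 23.3% of members, 6.51% of all genes, 3.01% of protein-coding genes and 32.4% of the 34 other short non-coding genes (snoRNA, snRNA and scaRNA). Mir290a, the first hairpin of its cluster, had 1 value, 1.46 in siDhx30 replicate 2. Mir433, antisense to the coding sequence of Rtl1, had 3.39 in siTfam replicate 2, and Mir3960, in a non-coding exon of Cdk9, had 3.14 in siTfam replicate 1. These 2 were the highest values among the 60 members. Mir6244 had 2.80 and Mir92-2 had 0.34, each in siTfam replicate 1, and Mir705 and Mir196a-1 had 1.83 and 1.69 in siTfam replicate 2. Mir8112 had 0.73 in siDhx30 replicate 2 and 0.40 in siTfam replicate 2, and Mir6381 had 0.52 and 0.55 in the libraries numbered 1. Of those lacking 1 value, Mir6537 (1.42, 1.12 and 1.08), Mir5131 (0.97, 0.79 and 0.62) and Mir8099-1 (0.83, 0.80 and 0.76) had values in both siDhx30 libraries and siTfam replicate 1. Mir6409 lacked siDhx30 replicate 1 (1.11, 0.82 and 0.91 in the others) and Mir703 lacked siDhx30 replicate 2 (0.68, 1.15 and 0.86). Where only 1 library has a value there is no replicate, and these genes were outside the main test.

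Neighbouring hairpins of the mir-290 cluster lay on opposite sides of NC. Its 6 measured hairpins lie within 2216 bases of chromosome 7 (GRCm38, 3218626 to 3220841, plus strand), a span with 7 annotated microRNA genes on that strand, and are made from shared primary transcripts. All but Mir290a lie opposite the annotated 3′ UTR of Nlrp12, a gene of innate immune regulation on the other strand. Mir294 (ENSMUSG00000077903.1; GRCm38 chromosome 7, 3220641 to 3220724, plus strand) had ratios of -1.45 and -0.96 in siDhx30 and -1.09 and -0.52 in siTfam, below NC in every library. Mir295 (ENSMUSG00000077886.1; GRCm38 chromosome 7, 3220773 to 3220841, plus strand) is the next hairpin. It had ratios of 1.13 and 0.26 in siDhx30 and 1.59 and 0.93 in siTfam, above NC in every library. Mir295 exceeded Mir294, which carries the same seed, by 2.58, 1.22, 2.69 and 1.45 in the 4 libraries in that order.

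Other hairpins of the cluster lay nearer to 0 in most libraries. Mir293 had 0.16 and 0.35 in siDhx30 and 0.10 and 0.29 in siTfam, a narrow band just above NC. Mir291a had -0.17 and 0.081 in siDhx30 and 0.13 and -0.91 in siTfam, with siTfam replicate 2 apart from the other libraries. Mir291b had 0.0084 and -0.67 in siDhx30 and -0.24 and -0.039 in siTfam, with siDhx30 replicate 2 lowest. The median of the 5 complete hairpins was 0.0084, 0.081, 0.10 and -0.039 in the 4 libraries. Nlrp12 on the opposite strand had 0.93, 0.78, 2.03 and 1.22, above NC in every library and above Mir295 in all of them except siDhx30 replicate 1. None of the 5 passed limma's adjusted threshold of 0.05: Mir294 had -1.20 (SE 0.37, n = 2 libraries; limma adjusted p = 0.925) in siDhx30 against NC, and Mir295 had 1.26 (SE 0.51, n = 2 libraries; limma adjusted p = 0.847) in siTfam against NC. Between siDhx30 and siTfam, Mir294 differed by -0.40 (SE 0.31, 95% interval -1.25 to 0.46) and Mir295 by -0.56 (SE 0.42, 95% interval -1.73 to 0.60), both intervals including 0.

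**Figure D2:**
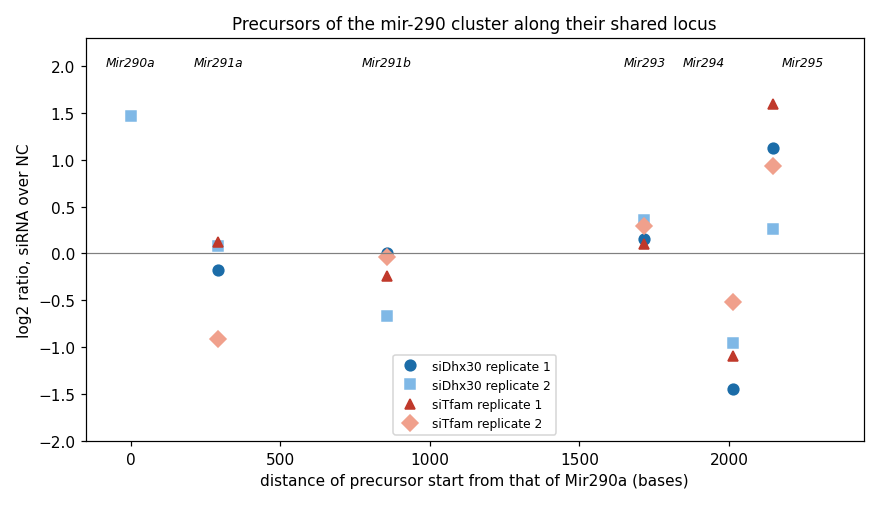
Log2 ratio over the NC library (vertical axis) of the 6 measured hairpins of the mir-290 cluster against the distance of each hairpin's start from that of Mir290a in bases (horizontal axis), with 1 point per siRNA library. Neighbouring Mir294 and Mir295 lie on opposite sides of 0 in all 4 libraries, and Mir290a has a point in siDhx30 replicate 2 only.

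Of the Mir363 cluster on chromosome X, related to the cell cycle cluster mir-17/92 and sharing its miR-92a seed, Mir363 (ENSMUSG00000070106.1; GRCm38 chromosome X, 52741693 to 52741767, minus strand) was complete. Its ratios were 0.048 and -0.55 in siDhx30 and 0.087 and -0.16 in siTfam, with the libraries numbered 2 below those numbered 1. The siDhx30 to siTfam difference was -0.21 (SE 0.27, 95% interval -0.98 to 0.55). Mir92-2, which starts 145 bases from Mir363, had the single value given above. Mir130c, antisense to the 3′ UTR of Kdelc2, had 0.023, 0.22, -0.093 and -0.27 in the usual order (siDhx30 replicates 1 and 2, then siTfam replicates 1 and 2), and its siDhx30 values lay above its siTfam values. Precursors of the let-7, mir-302, mir-200, mir-34 and mir-125 groups were not analysed here.

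No precursor passed an adjusted p of 0.05 against NC. The limma count was 0 of 46 for siDhx30 and 0 of 46 for siTfam, as it was for all genes (0% of 12088 in each). At an unadjusted p under 0.05 there were 6 of 46 members (13.0%) in siDhx30 against NC, 1 higher and 5 lower, against 5.04% of all genes (2.56% higher, 2.47% lower). In siTfam against NC there were 7 (15.2%), 3 higher and 4 lower, against 6.11% of all genes (3.04% higher, 3.08% lower). The 14 members with a missing value, whose 26 values present all lay above NC, were outside this test. On the reading that set the sign, a member with few NC reads was complete only with enough reads in every siRNA library. The split into higher and lower may therefore depend on that filter. A mean more than 1 from NC was found for 7 members (15.2%) in siDhx30 and 12 (26.1%) in siTfam, against 5.55% and 6.51% of all genes. Both comparisons use the 1 NC library, so the counts are not independent of each other, and in the siDhx30 against siTfam comparison, where NC cancels, the share was 2 of 46 (4.35%) against 2.79%. Those 2 were 1 higher in siDhx30 (1.29% of all genes) and 1 lower (1.5%). A difference past 1 was found for 2 members (4.35%), against 2.62%.

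Above NC, the precursor with the highest mean was Mir678 (ENSMUSG00000076068.1; GRCm38 chromosome 10, 76207326 to 76207409, minus strand), in the 3′ UTR of Prmt2, which encodes an arginine methyltransferase. Its ratios were 1.92 and 2.00 in siDhx30 and 1.27 and 2.84 in siTfam. All 4 values lay more than 1 above NC, the siTfam pair on either side of the siDhx30 pair. The means were 1.96 (SE 0.71, n = 2 libraries; limma adjusted p = 0.988) in siDhx30 and 2.05 (SE 0.71, n = 2 libraries; limma adjusted p = 0.807) in siTfam, 99.7% of genes lying lower in each. Its host Prmt2 had -0.40, -0.099, -0.69 and -0.32 in the same libraries, all below NC.

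Mir5116 (ENSMUSG00000092787.1; GRCm38 chromosome X, 56587852 to 56587914, minus strand), in the 3′ UTR of Mmgt1, a gene of the endoplasmic reticulum membrane complex, had much the same value in each library. They were 1.16 and 1.14 in siDhx30 and 1.17 and 1.33 in siTfam, so that the 2 groups nearly met. Its means were 1.15 (SE 0.19, n = 2 libraries; limma adjusted p = 0.618) and 1.25 (SE 0.19, n = 2 libraries; limma adjusted p = 0.45) in siDhx30 and siTfam, at unadjusted limma p-values of 0.00363 and 0.00264. Mir1191 (ENSMUSG00000080533.1; GRCm38 chromosome 7, 27205536 to 27205655, plus strand), in the 3′ UTR of BC024978, had 1.02 and 1.47 in siDhx30 and 0.88 and 1.86 in siTfam. Its means were 1.24 (SE 0.50, n = 2 libraries; limma adjusted p = 0.998) and 1.37 (SE 0.50, n = 2 libraries; limma adjusted p = 0.819). In both siRNA groups the second replicate was the higher of the pair.

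Mir5113 (ENSMUSG00000092868.1; GRCm38 chromosome 15, 80940039 to 80940120, plus strand) lies in the 3′ UTR of Tnrc6b, which encodes a scaffold protein of the microRNA silencing complex itself. Its ratios were 0.85 and 0.32 in siDhx30 and 1.36 and 1.56 in siTfam, with both siTfam values above both siDhx30 values. Tnrc6b had 0.11, -0.18, 0.0016 and -0.45, on average near or below NC. Against NC the Mir5113 mean was 0.59 (SE 0.30, n = 2 libraries; limma adjusted p = 0.998) in siDhx30 and 1.46 (SE 0.30, n = 2 libraries; limma adjusted p = 0.611) in siTfam. Further members with a mean above NC were Mir6357, with 0.94, 0.47, 0.81 and -0.037 in the usual order, Mir1892, with 0.50, 0.30, 0.36 and 0.87, and Mir7657, with 0.21, 0.12, 0.16 and 0.45. Mir6357 lies opposite coding sequence of Poli, a translesion DNA polymerase gene, and was below NC in siTfam replicate 2. Mir1892 and Mir7657 lie in the 3′ UTRs of Sptssa, a subunit gene of serine palmitoyltransferase, and Fnbp1l, a membrane-curving adaptor gene, and were above NC in all 4 libraries.

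Below NC, Mir1905 (ENSMUSG00000084728.1; GRCm38 chromosome 3, 88536301 to 88536382, minus strand) had the lowest mean and the smallest p. It lies opposite coding sequence of Mex3a, which encodes an RNA-binding protein. Its ratios were -1.87 and -1.62 in siDhx30 and -2.10 and -2.32 in siTfam, all more than 1 below NC. The means were -1.75 (SE 0.23, n = 2 libraries; limma adjusted p = 0.478) and -2.21 (SE 0.23, n = 2 libraries; limma adjusted p = 0.378), or 29.8% and 21.6% of the NC value. Mex3a was not analysed here.

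Mir7670 (ENSMUSG00000098285.1; GRCm38 chromosome 6, 38507325 to 38507393, plus strand), in the 3′ UTR of Ubn2, a gene of a histone chaperone complex, had -1.91 and -1.36 in siDhx30 and -2.19 and -1.71 in siTfam. These values were all below -1, and the 2 groups overlapped. Its means were -1.63 (SE 0.37, n = 2 libraries; limma adjusted p = 0.706) and -1.95 (SE 0.37, n = 2 libraries; limma adjusted p = 0.583). Ubn2 itself had 0.48, -0.084, 0.093 and -0.65, on both sides of 0. Mir7658 (ENSMUSG00000098954.1; GRCm38 chromosome 4, 156230059 to 156230115, minus strand), in coding sequence of Plekhn1, had -1.96 and -0.94 in siDhx30 and -1.01 and -1.03 in siTfam, with siDhx30 replicate 1 apart from the other 3 libraries. The host gene Plekhn1 was above NC in all libraries, at 0.14, 0.17, 0.13 and 0.28.

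Mir328, in an intron on the strand opposite Elmo3, a cell engulfment gene, had -1.11 and -0.84 in siDhx30 and -1.18 and -1.66 in siTfam. Both siTfam values were below both siDhx30 values, and the means were -0.97 (SE 0.30, n = 2 libraries; limma adjusted p = 0.908) and -1.42 (SE 0.30, n = 2 libraries; limma adjusted p = 0.611). Mir761, whose hairpin crosses from an intron into coding sequence of the protease gene Nrd1, had -0.88, -0.55, -1.01 and -0.47 in the usual order, below NC throughout. Nrd1 had 0.14, 0.11, 0.21 and 0.23, above NC throughout. Mir7672, in the 5′ UTR of Pde12, which encodes a nuclease that removes poly(A) tails from mitochondrial RNA, had -1.01, -0.022, -0.57 and -0.74, with siDhx30 replicate 2 near 0 and the other 3 libraries lower. Its mean in siDhx30 was -0.52 (SE 0.47, n = 2 libraries; limma adjusted p = 0.998).

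Several low means rested on 1 library. Mir8107, at an exon edge of Nbeal2, had -1.58 and 0.073 in siDhx30 and -0.66 and -2.92 in siTfam; its siDhx30 mean of -0.75 was 0.073 without replicate 1, and its siTfam mean of -1.79 was -0.66 without replicate 2. Mir1966, at an exon edge of Ripor1, had 0.020, 0.092, 0.11 and -1.91, so that its siTfam mean of -0.90 was 0.11 without replicate 2. Mir7231, in an intron of the transcription factor gene Foxj2, had 0.46, 0.057, -0.42 and -1.59, with siTfam replicate 2 lowest. Mir5046, in the 3′ UTR of the kinase gene Rps6ka4, had -0.55, 0.16, -1.05 and -1.03, and here the siTfam values were nearly equal while the siDhx30 values fell on both sides of NC.

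The remaining complete members lay between these ends. Mir5114 had -0.010, 0.59, -0.19 and -0.14, with siDhx30 replicate 2 apart from the other libraries. Mir6340, opposite coding sequence of the endosomal gene Rab22a, had -0.41, 0.080, -0.24 and 0.45, the replicates of both siRNAs lying on opposite sides of NC. Mir700, which crosses into coding sequence of the calcineurin regulator gene Rcan3, had -0.90, 0.044, 0.15 and -0.77, and here too replicates fell on opposite sides. Mir1957b, opposite the 3′ UTR of Wdr59, had -0.64, 0.066, -0.27 and -1.09, with siTfam replicate 2 lowest.

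Others mostly kept close to NC. Mir686, in coding sequence of the proteasome gene Psmb5, had -0.012, -0.22, 0.049 and 0.062, and Mir762, opposite coding sequence of Bcl7c, had 0.014, -0.21, -0.012 and -0.053. Mir546, in the 3′ UTR of the phosphatase gene Ctdsp2, had 0.17, -0.11, 0.24 and 0.20. Mir692-3, in the ferritin-like gene Ftl1-ps1, had -0.059, 0.16, 0.039 and 0.33. Intronic Mir6925 in the kinesin gene Kif1c had -0.22, -0.14, -0.10 and -0.36, and Mir7082 in Gm38431 had -0.38, -0.043, -0.53 and -0.16, both below NC in all 4 libraries. Mir7082 lay farther from NC in siTfam, with a mean of -0.35 and 17.7% of genes lower.

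Between siDhx30 and siTfam, where each side has 2 libraries and NC cancels, the share of precursors whose groups did not overlap was near that of all genes. No member passed an adjusted p of 0.05 (limma, 0 of 46; 0% of all 12088 genes). Both siDhx30 libraries lay above both siTfam libraries for 8 of 46 members (17.4%), against 14.7% of all genes, and below both for 4 (8.70%), against 14.3%. The median difference was 0.030, against -0.0015 for all genes, with 24 members higher and 22 lower in siDhx30.

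The 2 members at an unadjusted p under 0.05 were both exonic, as were most tested members (22 on the same strand and 11 antisense). Mir5113 differed by -0.87 (SE 0.25, 95% interval -1.57 to -0.18), lower in siDhx30 at 54.5% of its siTfam value, at an unadjusted limma p-value of 0.0249 and an adjusted p of 0.999. Its host Tnrc6b differed by 0.19 (SE 0.24, 95% interval -0.47 to 0.86), of the other sign. Mir5046 differed by 0.84 (SE 0.29, 95% interval 0.030 to 1.66), at an unadjusted limma p-value of 0.0451 and an adjusted p of 0.999. Without 1 library the Mir5046 difference was 0.49 to 1.198, the lower value without siDhx30 replicate 2. With a replicate block the count at this unadjusted threshold was 5 of 46 members (10.9%), against 4.68% of all genes. The Mir5046 host Rps6ka4 differed by 0.17 (SE 0.27, 95% interval -0.60 to 0.94). Mir7231 had the highest difference, 1.27 (SE 0.46, 95% interval -0.034 to 2.57), with 99.3% of all genes lower. Without 1 library it was 0.68 to 1.85, the lower value without siTfam replicate 2. Mir8107 and Mir1966 followed at 1.04 (SE 1.01, 95% interval -1.80 to 3.88) and 0.96 (SE 0.74, 95% interval -1.11 to 3.02), differences that were -0.096 and -0.051 without siTfam replicate 2.

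Mir7677, in an intron of the calcium channel gene Itpr3, differed by 0.72 (SE 0.26, 95% interval -0.017 to 1.45), from values of 0.34 and -0.17 in siDhx30 and -0.47 and -0.80 in siTfam. Itpr3 differed by 0.34 (SE 0.16, 95% interval -0.11 to 0.79). Mir5122 differed by 0.63 (SE 0.29, 95% interval -0.18 to 1.45), from values of -0.049 and 0.59 in siDhx30 and -0.21 and -0.52 in siTfam. Mir1905 differed by 0.46 (SE 0.19, 95% interval -0.052 to 0.98) and Mir5114, in the 3′ UTR of the stearoyl-CoA desaturase gene Scd2, by 0.45 (SE 0.26, 95% interval -0.27 to 1.18). On the other side Mir7658 differed by -0.43 (SE 0.39, 95% interval -1.53 to 0.67), Mir1902 by -0.29 (SE 0.62, 95% interval -2.02 to 1.45), Mir6340 by -0.27 (SE 0.33, 95% interval -1.20 to 0.67) and Mir1892 by -0.21 (SE 0.24, 95% interval -0.89 to 0.47). The intervals of these 8 members included 0, and for 6 of them, all but Mir1905 and Mir1892, a difference of 1 on the log2 scale in 1 or the other direction was not excluded.

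**Figure D3:**
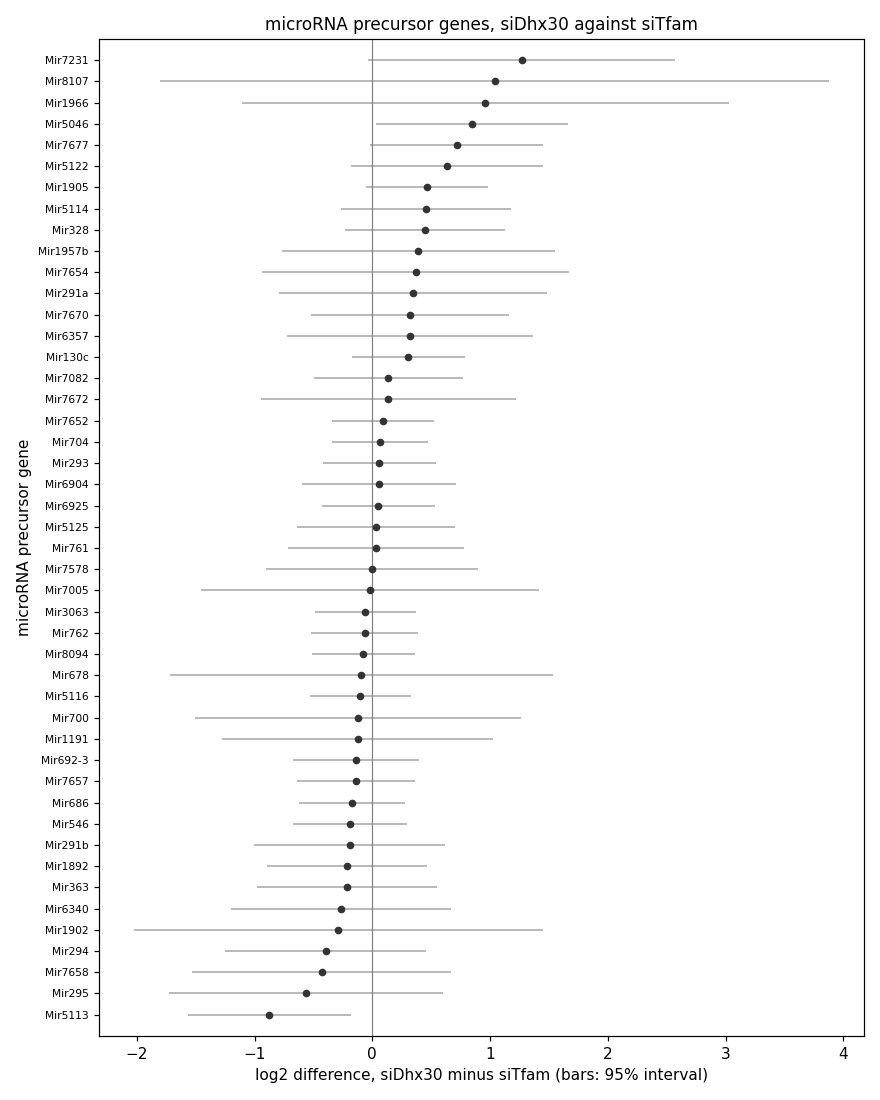
Log2 difference of siDhx30 minus siTfam (horizontal axis) for the 46 complete microRNA precursor genes (rows, ordered by the difference); points are limma estimates from 2 libraries a group and bars their 95% intervals. The intervals of Mir5113 and Mir5046 exclude 0 before adjustment, and the widest belong to Mir8107 and Mir1966.

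Replicates of an siRNA differed more for precursors than for most genes, a measure from which NC also cancels. The median absolute difference between replicates was 0.41 for siDhx30 and 0.35 for siTfam over the 46 members, against 0.23 and 0.24 over all genes and 0.20 and 0.21 over protein-coding genes. In the 23 other short non-coding genes with complete values it was 0.46 and 0.31. Differences of more than 1 were found for 4 members in siDhx30 (8.70%, against 6.65% of all genes) and 7 in siTfam (15.2%, against 8.09%). The pair of Mir8107 differed most, by 1.65 and 2.27. Mir5116 was close within both pairs, as given above, and Mir704, at an exon edge of the protein-folding gene Pdia4, had 0.14, 0.095, 0.013 and 0.097.

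**Figure D4:**
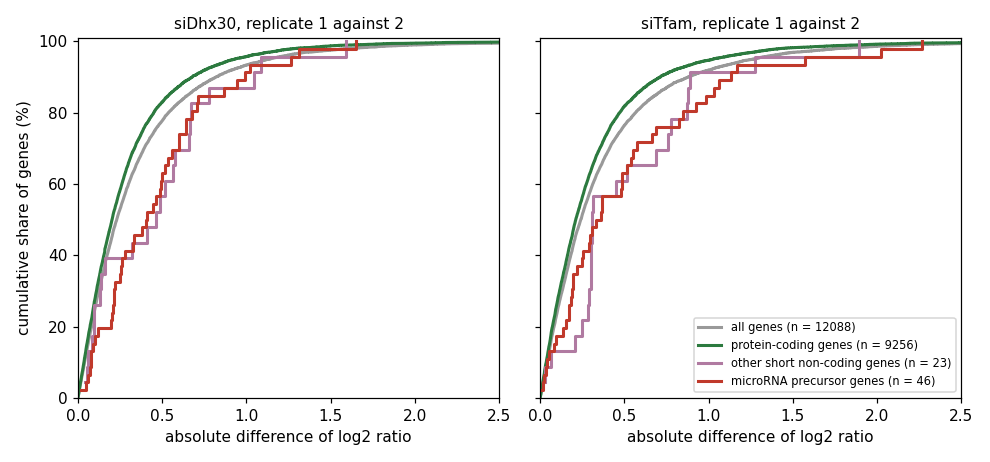
Cumulative share of genes (vertical axis, %) against the absolute difference of the log2 ratio between the 2 replicates of siDhx30 (left) and of siTfam (right), for 4 groups of genes. The curve of the 46 microRNA precursor genes lies to the right of that of the 9256 protein-coding genes, with medians of 0.41 against 0.20 on the left and 0.35 against 0.21 on the right.

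Precursors on the strand of their host mostly lay farther from NC than that host. Of 39 members on the strand of a host, 22 had complete values for both, each with its own host. The median absolute distance between member and host was 0.31, 0.36, 0.32 and 0.59 in the 4 libraries, and the member was farther from NC than its host in 18, 16, 18 and 18 of 22. All these ratios share the NC library. In the siDhx30 to siTfam difference, where it cancels, the member was farther from 0 than its host in 11 of 22. With hosts on either strand that count was 14 of 31, from 27 hosts. In the 8 pairs with the member antisense to a host exon, from 4 hosts, the member was farther from NC in 4, 3, 1 and 2. The complete mir-290 cluster members share the host Nlrp12, so these antisense pairs are not independent. The signs of same-strand pairs matched in 13, 10, 12 and 7 of 22. Across these 22 genes, which share libraries and may share reads with their hosts, Spearman's rho between member and host was 0.013, -0.12, -0.23 and -0.30.

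By their medians, members in a host intron lay nearer to their host than members in an exon. For 15 exonic members the median absolute distance was 0.35, 0.50, 0.38 and 0.70, and for 7 intronic members it was 0.20, 0.15, 0.18 and 0.22, a difference that was not tested. Among exonic pairs Mir678 exceeded Prmt2 by 2.33, 2.10, 1.96 and 3.15, and Mir7670 was below Ubn2 with differences of -2.39, -1.27, -2.29 and -1.06. Large distances were also found for an intronic pair, Mir8107 and Nbeal2, with differences of -1.38, -0.021, -0.50 and -3.14. Mir8094, in coding sequence of the splicing helicase gene Ddx39b, stayed close to its host: it had -0.053, 0.0085, -0.034 and 0.14 and Ddx39b had 0.0047, -0.080, 0.013 and -0.0029. So did Mir3063, in the 3′ UTR of the RNA-binding protein gene Igf2bp1, with 0.036, -0.084, -0.013 and 0.084 against -0.021, -0.046, -0.21 and -0.072. Mir7652, in the 3′ UTR of the stress granule gene G3bp1, had 0.067, 0.17, 0.10 and -0.039 against 0.42, 0.041, 0.37 and -0.023.

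Some exonic members lay on both sides of NC. Mir1902, in the 3′ UTR of the kinase gene Hipk3, had 0.40, -0.91, 0.56 and -0.50 against 0.099, -0.0066, -0.093 and -0.25, above NC in the libraries numbered 1 and below it in those numbered 2. Mir7654, in coding sequence of Arglu1, had -0.27, 0.23, -0.95 and 0.18 while Arglu1 was below NC throughout, at -0.58, -0.62, -0.69 and -0.63. Among intronic members, Mir6904 in the DNA repair gene Parp1 had -0.33, 0.050, -0.38 and -0.013 against -0.17, -0.049, -0.095 and 0.075, and Mir7005 in the laminin gene Lama5 had -0.76, 0.51, -0.38 and 0.17 against -0.26, 0.48, -0.20 and -0.011. Mir7578 in Brd3, a gene of a chromatin reader, had -0.54, 0.10, -0.46 and 0.030 against -0.31, -0.29, -0.51 and -0.43. Mir5125 in the splicing factor gene Srrm2 had -0.058, -0.47, -0.11 and -0.47 against 0.039, -0.089, -0.073 and -0.25. With hosts on either strand, 31 members had a value for both.

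**Figure D5:**
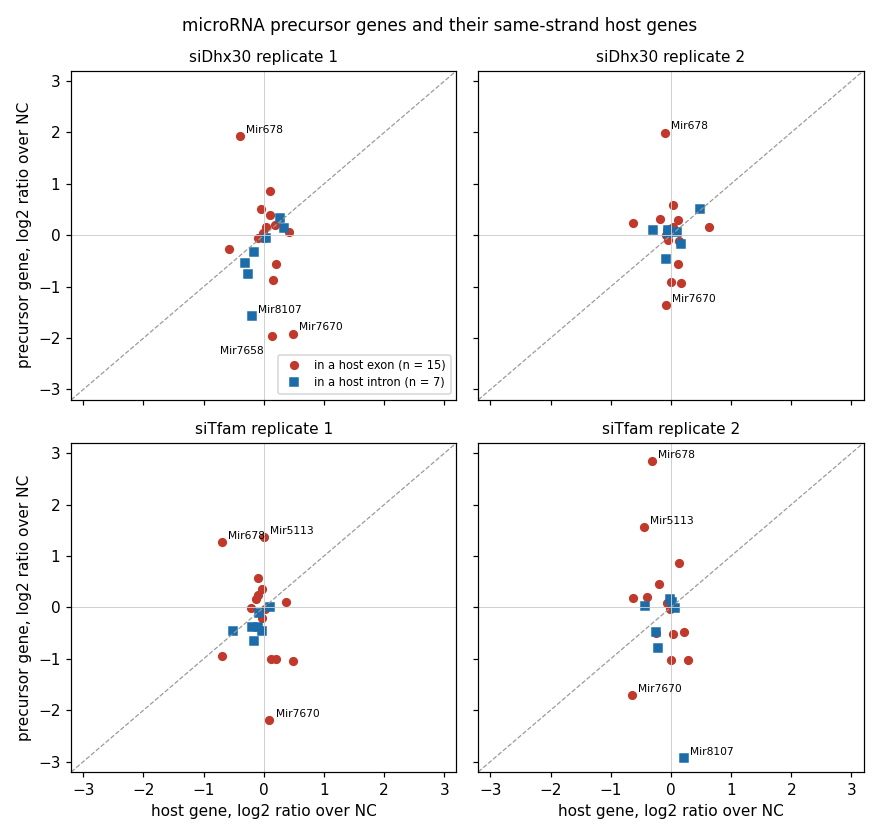
Log2 ratio over the NC library of 22 microRNA precursor genes (vertical axis) against that of their same-strand host gene (horizontal axis) in each siRNA library; circles are members in a host exon, squares members in a host intron, and the dashed line marks equal values. The hosts lie between -0.69 and 0.63, whereas Mir678 lies above and Mir7670 below the line in all 4 panels.

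Genes that make and use microRNAs lay near the NC level. Of 38 listed genes of microRNA processing, export, silencing and decay, 33 were measured, and limma called 0 of them in any comparison. The median mean ratio was 0.018 in siDhx30 (18 higher and 15 lower than NC) and -0.060 in siTfam (12 and 21), against -0.012 and -0.020 over all genes. At an unadjusted p under 0.05 there were 0, 1 and 0 genes in siDhx30, in siTfam and between them, against 5.04%, 6.11% and 2.79% of all genes.

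In the nuclear step, Drosha, the nuclease, had 0.0056, 0.030, -0.13 and -0.15 in the usual order, and its partner Dgcr8 had 0.23, -0.099, 0.35 and -0.060. The helicase gene Ddx5 had 0.022, 0.033, -0.033 and 0.064, close to NC. Khsrp, which encodes a protein that binds precursor loops, had -0.63, -0.15, -0.79 and -0.20, below NC throughout. Of the export genes, Xpo5, the carrier of hairpins to the cytoplasm, had 0.11, 0.0029, 0.0073 and 0.0017.

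In the cytoplasm, the nuclease gene Dicer1 had 0.24, 0.098, 0.020 and -0.14, and its partner Tarbp2 had -0.46, -0.12, -0.29 and -0.069, below NC throughout. Prkra, another Dicer1 partner, had -0.33, 0.13, -0.47 and -0.31. Ago2, the Argonaute that can cut its targets, had -0.39, -0.70, -0.77 and -1.09, below NC in every library; its mean was -0.55 (SE 0.26) in siDhx30 and -0.93 (SE 0.26) in siTfam, and limma adjusted p was 0.998 and 0.706. It was the 1 listed gene at an unadjusted p under 0.05, in siTfam. Ago1 had -0.23, -0.31, -0.37 and -0.69 and Ago3 0.56, -0.24, 0.80 and -0.61, so that Ago1 shared the side of Ago2 and Ago3 changed sides between replicates.

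The Argonaute partner Tnrc6a had 0.065, -0.038, -0.015 and -0.17. Its relative Tnrc6c had 0.045, 0.047, 0.055 and -0.24, lowest in siTfam replicate 2 as Tnrc6a was. Zswim8, a gene of target-directed microRNA decay, had -0.37, -0.20, -0.35 and -0.31, and Lin28b, which blocks let-7 processing, had -0.0053, -0.029, -0.36 and -0.072. The exonuclease gene Dis3l2, which degrades tailed let-7 precursors, had 0.46, 0.078, 0.44 and 0.24, above NC throughout. The tailing enzyme gene Tut4 had -0.22, -0.064, -0.084 and 0.070, and its relative Tut7 had 0.27, -0.10, 0.021 and 0.27. Lin28a, Trim71, Ago4, Ddx17 and Hnrnpa1 were not analysed here.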

How the data were processed

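Per the file headers, the authors' table gives log2 fold changes, with a column per siRNA library and none for NC. bcl2fastq, HISAT2, featureCounts, DESeq2 and GRCm38 appear in the submitters' processing notes without settings; 0 value columns went unused. Signs were turned to siRNA over NC. The 12088 complete genes were fitted with limma 3.58.1 (R 4.3.3, robust=TRUE) on all 5 libraries, NC entering as a column of zeros, with 2 residual and 2.02 prior degrees of freedom and Benjamini-Hochberg adjustment over all genes. The spread of NC was taken to equal that of the siRNA pairs. The test was tried on simulated data with changed genes planted in siDhx30 against NC. Among 12088 genes, 2% of planted log2 changes of 1 and 71.2% of those of 2 were recovered. Changes of 3 and 4 were planted beside them, which makes the adjusted threshold easier to pass than here, where 0 genes passed. The planted genes were drawn from all genes (median SE 0.25, against 0.33 for precursors). These shares may therefore be too high for precursors. All 60 members matched GENCODE M21 symbols. A host is the gene whose body overlaps the hairpin, exonic where at least 50% of the hairpin lies in its exons, with same-strand exons preferred. The genes named include the 8 highest and 8 lowest members and the 5 of smallest p per comparison. Also named are the stem cell families and members with missing values, with part of the hosts and of the listed pathway genes. Other genes were chosen after their values were seen. Members and lists were chosen with earlier results of these data known. Tables and plots were made in Python 3.11.15 with pandas 2.3.3, numpy 2.4.6 and matplotlib 3.10.9. Alternatives left out each siRNA library, used robust=FALSE, centred the libraries, kept genes with missing values, or blocked on the replicate number. The result of 1 host gene is not reported here.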

Additional observations from a re-analysis of the deposited data

How the results depend on the processing

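Each ratio rests on 1 NC library of unknown depth. In the fits that kept all libraries, 0 members passed the adjusted threshold in any comparison. The replicate block was run for siDhx30 against siTfam only. Besides the main fit, pathway genes were counted only with a library left out or with the libraries centred, and 0 passed with the libraries centred. The count of members at an unadjusted limma p under 0.05 was 4 to 7 without 1 library in siDhx30 against NC, 7 to 11 in siTfam against NC and 1 to 4 in siDhx30 against siTfam; of all genes, 5.05% to 5.8%, 5.44% to 8.1% and 2.31% to 7.62% were called in these fits. With genes of missing values kept it was 11 of 54 (20.4%, against 7.62% of all genes) in siDhx30 and 16 of 59 (27.1%, against 9.14%) in siTfam, where the added members lie above NC only. The replicate block gave 5 of 46 (10.9%, against 4.68% of all genes) in siDhx30 against siTfam, against 2 without it; replicate deviations of same-numbered libraries had a correlation of 0.25 over all genes and 0.047 over members, and the labels give no pairing. Without 1 library the member median ran from -0.071 to 0.069, from -0.17 to -0.10 and from -0.045 to 0.12 in the 3 comparisons, and with genes of missing values kept it was 0.0054 and 0.034 against NC. The pathway median ran from -0.039 to 0.022 and from -0.076 to 0.0016 against NC, and its count at an unadjusted p under 0.05 in siTfam was 0 to 1. Members outside exons (13) had medians of -0.22 and 0.050 in siDhx30 and -0.38 and -0.36 in siTfam, and members with any value had medians of 0.013 and -0.038 in siTfam replicates 1 and 2. With hosts on either strand the median distance to the host in siDhx30 replicate 1 was 0.55. Of 352 recomputed member values, 12 changed sign, each without 1 library: Mir8107 ran from -1.58 to 0.073 and Mir5114 from -0.010 to 0.59 in siDhx30 against NC, and Mir1966 from -1.91 to 0.11 and Mir6357 from -0.037 to 0.81 in siTfam against NC. In siDhx30 against siTfam, Mir7658 ran from -0.94 to 0.083, Mir1902 from -0.94 to 0.37, Mir6340 from -0.61 to 0.078, Mir363 from -0.51 to 0.085, Mir1892 from -0.47 to 0.043, Mir8107 from -0.096 to 2.17 and Mir1966 from -0.051 to 1.97. The cause of these shifts was not tested.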

Other observations

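Long transcripts that carry microRNAs, which the name rule left out of the members, were also in the table. Mir17hg, the primary transcript of the mir-17/92 cluster, lay near NC, with log2 ratios of 0.23, -0.26, 0.13 and 0.026 in siDhx30 replicates 1 and 2 and siTfam replicates 1 and 2. Mir142hg, the primary transcript of a microRNA of blood cells, had -0.20, -0.20, 1.69 and 1.19, with both siTfam libraries above NC and both siDhx30 libraries just below it. Its siDhx30 to siTfam difference was -1.64 (SE 0.23, 95% interval -2.28 to -1.003), at an unadjusted limma p of 0.0021 and an adjusted p of 0.999. Mirg, a transcript of the imprinted Dlk1-Dio3 region that carries many microRNAs, had 0.25, -0.093, 0.43 and 0.53. Mir9-3hg had 0.086, -0.14, 0.10 and 0.31 and Mir670hg had -0.19, 0.025, -0.44 and -0.46, and Mir124a-1hg, of a neuronal microRNA, had 0.83, 0.47, 0.42 and -1.63, with siTfam replicate 2 apart from the other libraries.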
